A study of Mus musculus and Ochotona curzoniae and Rattus norvegicus with 18 samples.

Results

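The genes described here make, cut and bind hyaluronan, the long sugar polymer of the skin matrix, in cultured fibroblasts of the Tibetan pika and the mouse. They were chosen by symbol and are the synthases HAS1, HAS2 and HAS3, the hyaluronidases HYAL1 and HYAL2, the receptor CD44, and the matrix partners TNFAIP6, VCAN and HAPLN1. All 9 were found in both tables, among 14418 genes joined by symbol, and all 9 were among the 10348 genes tested. The RNA-seq libraries came from Tibetan pika fibroblasts (Ochotona curzoniae, no strain given) and from fibroblasts of C57BL/6J mice, 3 libraries per species, and the labels name the tissue as epidermis. Both were grown in DMEM with 10% serum under 5% CO2 at 37 °C with no treatment named, and were lysed at 90% confluency. Age, sex, body site and passage are not given in the sources used here. The labels do not state whether libraries of 1 species are different animals or cultures, so p-values here measure only the spread among these libraries, which may be technical. Rat and rabbit libraries and the ChIP-seq samples of the series were not analysed here.

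Hyaluronan is a chain of alternating glucuronic acid and N-acetylglucosamine. The HAS enzymes build it at the plasma membrane from the UDP-sugars of the cytosol and push it out of the cell as it grows, and HAS2 is the usual main synthase of dermal fibroblasts. HYAL2 at the cell surface and HYAL1 in the lysosome cut the chain. CD44 binds it at the cell surface, the protein TSG-6 (gene TNFAIP6) decorates it with protein chains, and the proteoglycan versican (VCAN) and the link protein HAPLN1 anchor to it in the matrix.

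Totals behind the deposited values were 7703576 to 8481030 reads per pika library and 3663102 to 5758950 per mouse library. All levels below are FPKM (fragments per kilobase of gene model and per 1000000 reads, as deposited), rescaled so that the joined genes of a library sum to 1000000, and are given as rescaled FPKM. Each log2 fold change sets pika against mouse after adding 1 to every level (limma-trend), which understates the change of low genes. A gene was called where its Benjamini-Hochberg adjusted p over all tested genes was under 0.05 and its log2 fold change was at least 1 in either direction. Species, genome and gene annotation cannot be told apart in this design, and in bulk RNA neither can fewer cells of a type and less RNA per cell. The median ratio of mouse to pika gene model length was 2.26 over 9945 tested genes, and calls that are gained or lost without division by gene length are given as such. GRCm38 is the only build named for the series, and it is not stated which genome the pika reads were mapped to.

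The labelled cell type was checked on its markers. The 9 joined fibroblast markers summed to between 10706 and 11075 in pika and between 12414 and 12760 in mouse, with COL1A1 at 4787 ± 130 and 4811 ± 117 (SD, n = 3). They were not uniform between species, since the collagen gene COL3A1 (log2 fold change -5.32) and the receptor PDGFRA (-3.89) were lower in pika and FAP (4.31) and DCN (1.22) higher. FAP passed the filter on low values only through pika, with 20 mouse reads behind its mouse level of 1.23 ± 0.661. Of the 10 joined keratinocyte markers, KRT5, KRT14, KRT10, KRT15, EPCAM and CDH1 were at 0 in every pika library, and the list summed to 91.0 to 103.0 in pika and 58.5 to 68.4 in mouse. The leading genes of that sum were PERP (70.4 ± 7.46) and PKP1 (26.7 ± 1.14) in pika and DSP (45.2 ± 2.22) and SFN (10.8 ± 1.55) in mouse. Macrophage and leukocyte markers summed to 3.38 to 4.73 in pika and 26.1 to 38.9 in mouse, endothelial markers to 0.707 to 1.60 and 32.3 to 39.3, chondrocyte markers to 34.8 to 35.7 and 75.7 to 93.9, and melanocyte markers to 68.1 to 78.5 and 54.8 to 58.3. The leukocyte genes PTPRC, ADGRE1 and ITGAM were at 0 in every pika library. Few markers carried these sums. Only TEK (0.702 in pika, 31.4 in mouse) among the endothelial markers reached the level needed for testing. For chondrocytes only COMP (31.3 and 63.7) and SOX9 (1.02 and 19.8) did. For melanocytes only MITF (40.2 and 50.5) and PMEL (31.6 and 4.97) did. For macrophages and leukocytes only CD68 (3.35 and 15.8) and CSF1R (0.668 and 12.2) did. The part of these other cell types in the results below was not tested.

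The mouse promoter windows of 3 genes are shown because these genes differ between the species in different directions, with TNFAIP6 and CD44 higher in pika and VCAN lower. Each window runs from 250 bases before to 50 bases after the RefSeq start site in GRCm38.p6, on the strand of the gene, 5′ to 3′. Cd44 lies at chr2:102901616-102901915 on the minus strand, Tnfaip6 at chr2:52037863-52038162 on the plus strand and Vcan at chr13:89742463-89742762 on the minus strand. Capitals mark every match to the motifs ACGTG and GCGTG (the core bound by HIF proteins), CACGTG (the E-box bound by CLOCK and ARNTL, which contains ACGTG) and TGAGTCA (bound by AP-1), each searched on both strands.
Cd44: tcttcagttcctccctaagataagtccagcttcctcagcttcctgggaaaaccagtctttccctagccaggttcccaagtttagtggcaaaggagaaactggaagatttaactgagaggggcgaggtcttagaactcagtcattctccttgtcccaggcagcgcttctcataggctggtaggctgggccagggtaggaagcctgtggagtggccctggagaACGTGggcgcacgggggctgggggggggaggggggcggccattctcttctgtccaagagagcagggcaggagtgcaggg
Tnfaip6: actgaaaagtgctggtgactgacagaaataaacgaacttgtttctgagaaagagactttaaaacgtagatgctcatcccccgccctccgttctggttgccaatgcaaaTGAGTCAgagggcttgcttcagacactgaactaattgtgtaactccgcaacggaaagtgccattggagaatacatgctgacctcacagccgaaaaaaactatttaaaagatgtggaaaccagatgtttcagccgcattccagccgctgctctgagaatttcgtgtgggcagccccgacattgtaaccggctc
Vcan: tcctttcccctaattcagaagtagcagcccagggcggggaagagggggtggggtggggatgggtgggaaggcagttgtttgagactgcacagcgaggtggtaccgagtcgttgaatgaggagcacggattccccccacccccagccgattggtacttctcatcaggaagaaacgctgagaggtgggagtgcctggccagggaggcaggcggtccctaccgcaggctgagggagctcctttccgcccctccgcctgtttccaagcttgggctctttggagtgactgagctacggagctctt
The Cd44 window held 1 ACGTG, 29 bases before the start site, and the Tnfaip6 window held 1 TGAGTCA, 142 bases before it. No searched motif stood in the Vcan window. Of 32851 mouse promoter windows of this length, 19.6% held ACGTG, 32.4% GCGTG, 7.15% CACGTG and 5.20% TGAGTCA. The table held windows for 7 of the 9 genes. In the other windows the only match was 1 GCGTG in Hyal2, and Has2 and Has3 had no entry. These letters are a description of the mouse sequence and were not tested against the expression values.

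Among the 9 genes, 2 were called higher in pika (HAS2 and TNFAIP6), 2 lower (HAS1 and VCAN) and 5 were not called. Calls made up 52.2% of all tested genes, with 28.7% called higher and 23.5% lower, so 4 calls among 9 genes are close to the background and the count sets nothing apart. The median log2 fold change of the 9 genes was -0.37 and that of all tested genes 0.21. With the fold minimum set aside, 8 of the 9 had an adjusted p under 0.05, against 88.6% of all tested genes. The libraries of the species did not overlap for 7 of the 9, against 89% of all tested genes. HAS1 passed the filter on low values only through mouse, where it is higher, and HAPLN1 only through pika. Without rescaling 3 of the 9 were called higher and 1 lower, against 58.3% and 10.7% of all tested genes. The median over all genes was then 1.29.

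**Figure D1:**
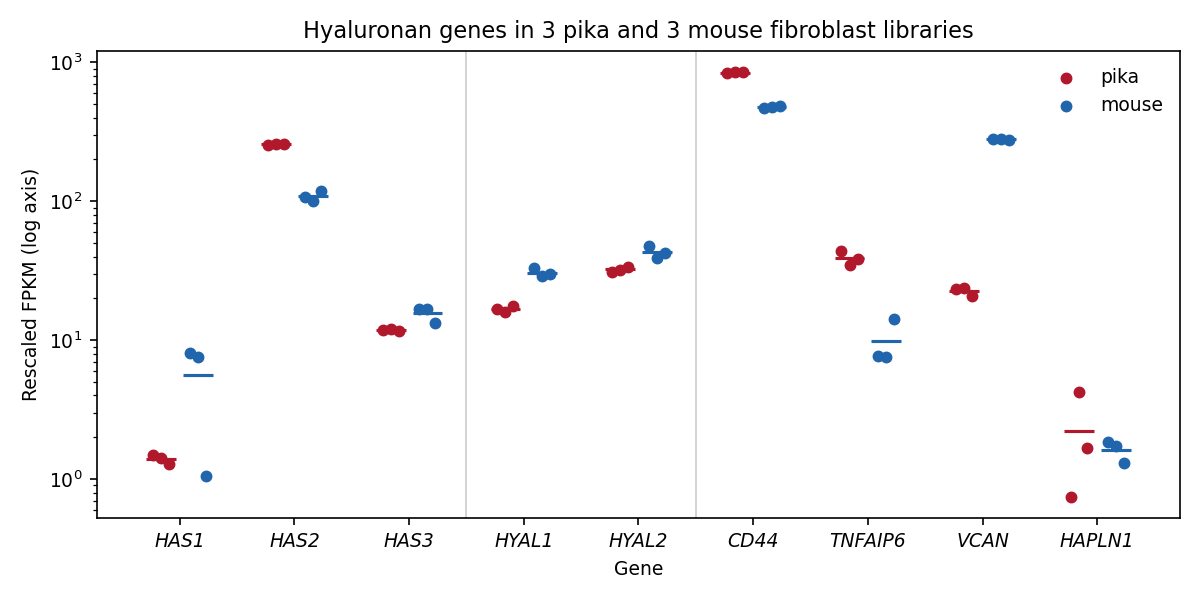
Rescaled FPKM (log axis) of the 9 hyaluronan genes in each of 3 pika (red) and 3 mouse (blue) libraries, with a line at the mean of each species; vertical lines separate synthases, hyaluronidases and binding proteins. The HAS2, CD44, TNFAIP6 and VCAN points of the species lie apart, while 1 mouse HAS1 point lies below the pika points and the HAPLN1 points overlap.

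The synthases were led by HAS2 in both species. HAS2 stood at 255.0, 258.9 and 257.9 in the pika libraries and at 107.8, 100.5 and 117.8 in the mouse libraries. Every pika library lay far above every mouse library. The mean was 257.3 ± 2.00 in pika and 108.7 ± 8.72 in mouse (SD, n = 3). The ratio was 2.37 and the log2 fold change 1.24 (SE 0.06, limma-trend adjusted p = 2.9e-08). The values rested on 9373 pika and 1235 mouse reads. HAS2 kept its call under all 16 alternatives, with log2 fold changes between 1.06 and 2.48, and without gene length it was 1.89. In mouse the gene lies on chromosome 15 from 56665627 to 56694546.

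HAS3, which makes shorter chains in many cell types, was low in both species. It stood at 11.8, 12.0 and 11.6 in pika and at 16.7, 16.8 and 13.4 in mouse. The pika libraries were all below the mouse libraries, by a small margin for mouse replicate 3. The log2 fold change of -0.37 (SE 0.12, limma-trend adjusted p = 0.017) stayed inside the fold minimum. It was 0.72 without rescaling, so its direction depends on the scale. The HAS3 model had 2028 bases in pika and 6380 in mouse, and without gene length the log2 fold change was -0.95. Its mouse locus spans 106870242 to 106882902 on chromosome 8.

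HAS1, the least abundant synthase, stood at 1.49, 1.41 and 1.29 in pika and at 8.03, 7.62 and 1.06 in mouse. Mouse replicate 3 was below all pika libraries and the other mouse libraries were above them, so the groups overlapped. The reads behind these values were 10, 9 and 9 in pika and 18, 11 and 2 in mouse. The log2 fold change was -1.18 (SE 0.50, limma-trend adjusted p = 0.047), the weakest of the 4 calls. Over the alternatives in which HAS1 was tested, the adjusted p ranged up to 0.36, without gene length the log2 fold change was -0.59 and not called, and without mouse replicate 3 it was -1.88 (limma-trend adjusted p = 9.2e-06). The call was lost when any 1 pika library was left out (limma-trend adjusted p of 0.085, 0.093 and 0.1). Without mouse replicate 1 or 2 the gene fell under the level needed for testing. Its mouse locus spans 17833691 to 17855589 on chromosome 17.

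The make-up of the synthase family within a library does not depend on how libraries are scaled. HAS2 made up 95.1%, 95.1% and 95.3% of the summed synthase FPKM in the pika libraries and 81.4%, 80.5% and 89.1% in the mouse libraries. The mean share was 95.1% ± 0.109 in pika against 83.6% ± 4.75 in mouse (SD, n = 3), a difference of 11.5 percentage points (exact two-sided permutation test, p = 0.1, the smallest that 3 against 3 libraries allow). HAS3 took 4.36% ± 0.0740 in pika and 12.0% ± 1.73 in mouse, and HAS1 0.516% ± 0.0398 and 4.32% ± 3.05. The HAS2 level was 21.8 ± 0.399 times that of HAS3 in pika and 7.09 ± 1.52 times in mouse. The 3 synthases together summed to 268.3, 272.3 and 270.7 in pika and 132.5, 124.9 and 132.2 in mouse. These shares rest on the gene models, and with reads not divided by length the HAS2 share differed by 16.4 percentage points.

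**Figure D2:**
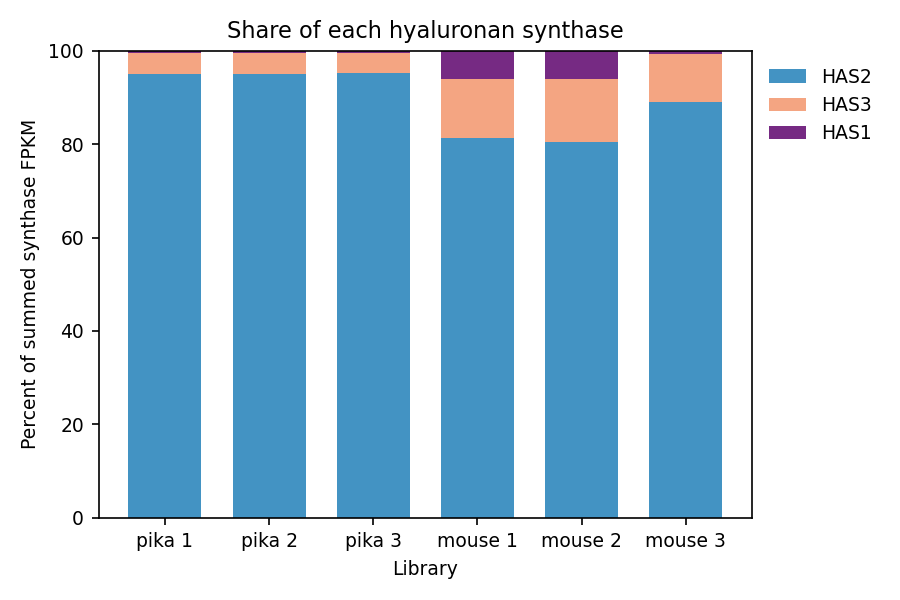
Percent of the summed FPKM of the 3 synthases taken by HAS2, HAS3 and HAS1 in each library, with bars that add up to 100. HAS2 takes about 95% in each pika library and 80.5% to 89.1% in the mouse libraries, where HAS3 and HAS1 take the rest.

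Both hyaluronidases were lower in pika on the joined-gene scale, without reaching the fold minimum, and both were higher without rescaling. HYAL1 stood at 16.7, 16.1 and 17.5 in pika and at 32.8, 29.1 and 29.9 in mouse. The groups did not overlap, and each mouse library was well above the pika libraries. The log2 fold change was -0.83 (SE 0.09, limma-trend adjusted p = 1.7e-05), 0.37 without rescaling, and -1.79 without gene length, where HYAL1 was called lower. Its pika model had 888 bases and its mouse model 3777. HYAL2 stood at 31.0, 32.3 and 33.9 in pika and at 47.6, 39.1 and 42.4 in mouse. The pika libraries were again below all mouse libraries. The log2 fold change was -0.40 (SE 0.09, limma-trend adjusted p = 0.0021) and 0.81 without rescaling. Within a library HYAL2 was at 1.93 ± 0.0786 times the HYAL1 level in pika and 1.40 ± 0.0542 times in mouse. The 2 genes are neighbours on mouse chromosome 9, Hyal2 from 107567873 to 107572778 and Hyal1 from 107576950 to 107581699.

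CD44, which carries hyaluronan at the cell surface and links it to the actin cortex, was the most abundant of the 9 genes in both species. It stood at 833.3, 849.0 and 853.3 in pika and at 472.1, 479.0 and 482.1 in mouse. The libraries of each species lay close together and far from those of the other. The mean of 845.2 ± 10.5 in pika was 1.77 times the 477.7 ± 5.12 in mouse, and the log2 fold change was 0.82 (SE 0.03, limma-trend adjusted p = 2.5e-09). The difference was many times the spread between libraries and still fell inside the fold minimum, so the gene was not called. Without rescaling the log2 fold change was 2.11 and it was called. Among all tested genes CD44 ranked 166th by mean level in pika and 349th in mouse, and its fold change was at percentile 66.9. Its mouse locus spans 102811141 to 102901669 on chromosome 2.

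TNFAIP6 encodes TSG-6, a secreted protein of inflamed and ovulating tissue that transfers the heavy chains of inter-alpha-inhibitor onto hyaluronan. It stood at 43.7, 35.0 and 38.5 in pika and at 7.63, 7.62 and 14.2 in mouse. All pika libraries were above all mouse libraries, and mouse replicate 3 was higher than the other 2. The mean was 39.1 ± 4.38 in pika and 9.83 ± 3.82 in mouse, a ratio of 3.97 and a log2 fold change of 1.94 (SE 0.21, limma-trend adjusted p = 1.7e-05). The mouse level rested on 14, 9 and 22 reads and the pika level on 158, 120 and 145. The call held under all 16 alternatives, between 1.77 and 2.76. Relative to HAS2 in the same library, TNFAIP6 was at 0.171, 0.135 and 0.149 in pika and at 0.0708, 0.0759 and 0.121 in mouse. The groups lie apart in this ratio, which rests on the gene models. These had 960 bases in pika and 1710 in mouse for TNFAIP6, and 3235 and 4237 for HAS2. In reads not divided by length the groups overlap. Mouse replicate 3, with 22 TNFAIP6 and 451 HAS2 reads, then lies above pika replicate 2, with 120 and 2993. Its mouse locus spans 52038113 to 52056681 on chromosome 2.

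VCAN encodes versican, a large chondroitin sulfate proteoglycan that binds hyaluronan through its amino-terminal end. Its level was the largest difference among the 9 genes. It stood at 23.4, 23.6 and 20.9 in pika and at 281.4, 282.6 and 274.6 in mouse. All mouse libraries were far above all pika libraries, and the libraries of each species lay close together. The mean was 22.7 ± 1.49 in pika and 279.5 ± 4.34 in mouse, 12.3 times as high in mouse, and the log2 fold change was -3.57 (SE 0.06, limma-trend adjusted p = 5.6e-11). The values rested on 2565 pika and 10776 mouse reads. The call held under all 16 alternatives, between -3.74 and -2.23, and was -3.10 without gene length. Its fold change was at percentile 5.1 of all tested genes. Its mouse locus spans 89655309 to 89743027 on chromosome 13.

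HAPLN1, the cartilage link protein that locks lecticans such as versican onto hyaluronan, was close to the limit of detection. It stood at 0.748, 4.20 and 1.68 in pika and at 1.84, 1.72 and 1.31 in mouse. The groups overlapped, and the pika libraries spread over more than the whole mouse range. The reads were 3, 16 and 7 in pika and 10, 6 and 6 in mouse. The log2 fold change was 0.15 (SE 0.35, limma-trend adjusted p = 0.70), it was -0.56 without gene length, and a difference was not detectable at this depth. Its mouse locus spans 89540529 to 89611832 on chromosome 13, beside Vcan.

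**Figure D3:**
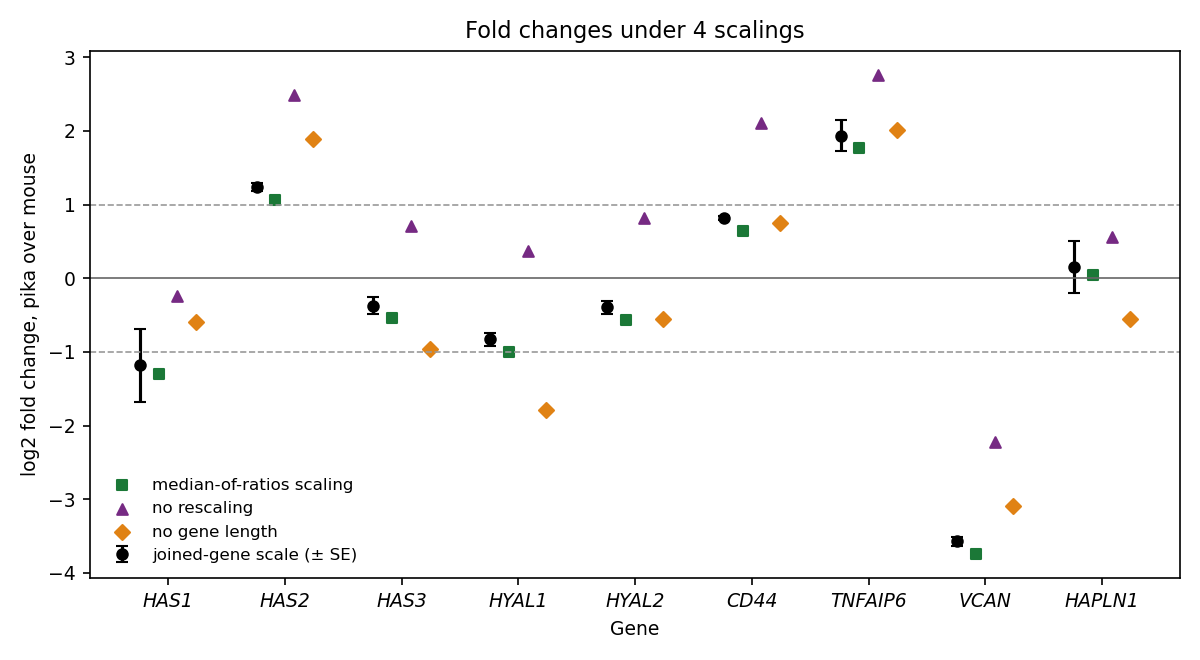
log2 fold change, pika over mouse, of the 9 genes with the joined-gene scale (black, ± SE), median-of-ratios scaling (green), no rescaling (purple) and no division by gene length (orange); dashed lines mark the fold minimum of 1 in either direction. HAS2 and TNFAIP6 lie above the upper line and VCAN below the lower line in all 4, while HAS3, HYAL1 and HYAL2 change sign without rescaling.

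The order of the 9 genes by level per length differed between the species. In pika it was CD44, HAS2, TNFAIP6, HYAL2, VCAN, HYAL1, HAS3, HAPLN1 and HAS1. Neighbours in that order did not overlap between libraries except HAPLN1 and HAS1. In mouse it was CD44, VCAN, HAS2, HYAL2, HYAL1, HAS3, TNFAIP6, HAS1 and HAPLN1, where HAS3 and TNFAIP6, TNFAIP6 and HAS1, and HAS1 and HAPLN1 overlapped. VCAN thus stood in place 2 in mouse and place 5 in pika, and TNFAIP6 in place 7 and place 3. Within a library, CD44 was at 35.6, 35.9 and 40.8 times the VCAN level in pika and at 1.68, 1.70 and 1.76 times in mouse. That ratio is free of the scale between libraries and keeps the groups apart. CD44 was at 3.29 ± 0.0213 times the HAS2 level in pika and 4.41 ± 0.340 times in mouse.

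**Figure D4:**
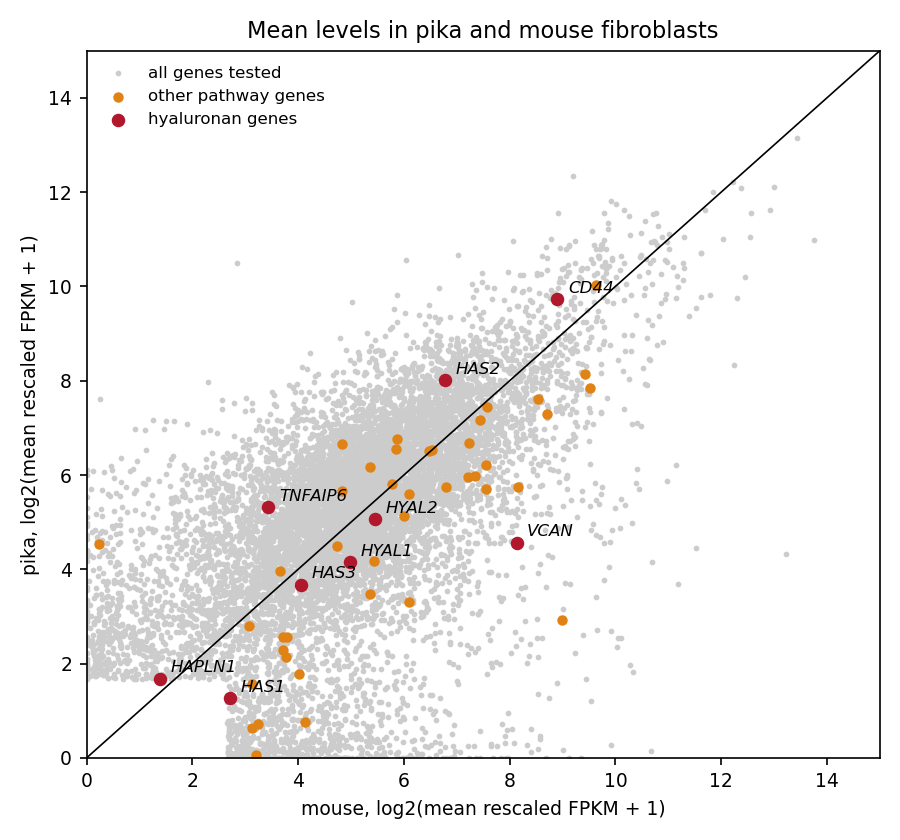
Mean level in mouse (x axis) and pika (y axis), both as log2(mean rescaled FPKM + 1), of all 10348 tested genes (grey), 43 other tested genes of the hyaluronan pathway (orange) and the 9 hyaluronan genes (red, named); the line marks equal levels. CD44, HAS2 and TNFAIP6 lie above the line, VCAN lies far below it, and most orange points lie below it.

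The genes whose levels over the 6 libraries came nearest to CD44, HAS2 and VCAN, the 3 members with the highest mean log2 level over all 6 libraries, were found by Euclidean distance of log2(value + 1). Nearest to CD44 was CEMIP, a hyaluronan-binding protein with which dermal fibroblasts take apart hyaluronan, at a distance of 0.083, followed by SLC38A2 (0.093) and RPS28 (0.142). CEMIP was at 845.4 ± 15.3 in pika and 480.3 ± 12.2 in mouse, against 845.2 and 477.7 for CD44. Its log2 fold change was 0.81 (SE 0.03), which was 2.10 without rescaling and 0.28 without gene length, with models of 4086 bases in pika and 12232 in mouse. CEMIP was at 26.2 ± 1.62 times the HYAL2 level of its library in pika and 11.3 ± 1.31 times in mouse. Nearest to HAS2 were SRSF11 (0.172), KARS (0.255) and CACYBP (0.265), and nearest to VCAN were IMPACT (0.405), FZD7 (0.463) and TLCD1 (0.496). Such nearness covers 6 libraries of 2 species and shows only like levels.

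The remaining genes of the pathway were read from 8 lists with 65 genes, of which 60 were in both tables and 43 were tested. The filter favoured a difference in genes that passed it only through the species where they are higher. Calls of such genes are not independent of the filter. Of the genes named below, ITIH2, ITIH5, ADAMTS9, ESRP2 and ANK2 passed only through mouse and CHST3 only through pika. On the joined-gene scale 2 of the 43 were called higher and 23 lower, with 18 without a call, against 28.7% higher and 23.5% lower over all tested genes. Their median log2 fold change was -1.14, against 0.21 for all tested genes. Without rescaling 14 (32.6%) were called higher and 6 (14%) lower, against 58.3% and 10.7% of all tested genes. The median was then 0.04 against 1.29 for all tested genes. Set against the median of all genes, the median of the 43 was -1.35 on the joined-gene scale, -1.25 without rescaling and -0.96 without gene length. The lists were chosen with results of these data known, and these counts are a description.

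Enzymes that make the UDP-sugar building blocks went both ways, mostly inside the fold minimum. Of 7 tested, 1 was called lower, against 23.5% of all tested genes, and 6 were not called, with a median of 0.00. Without rescaling 5 were called higher and 0 lower, against 58.3% and 10.7% of all tested genes, with a median of 1.25. GFPT2, a form of the enzyme that commits glucose to the hexosamine pathway, had pika levels of 17.1 ± 2.55 and mouse levels of 42.0 ± 2.12. Its log2 fold change was -1.26, and -0.01 without rescaling. UGDH, which makes UDP-glucuronic acid, was at 173.9 ± 3.58 and 189.1 ± 8.35 (-0.12), 1.15 without rescaling and -0.73 without gene length. UGP2, which makes UDP-glucose, was at 194.1 ± 7.97 and 369.1 ± 9.23 (-0.92), 0.36 without rescaling and -0.16 without gene length. With median-of-ratios scaling UGP2 was called lower (-1.10). There 2 of the 7 were called lower, against 26.2% of all tested genes. GNPNAT1 (0.90) and PGM3 (0.81), which act in the hexosamine pathway, had the opposite sign and were not called. HK1 and GPI were not joined by symbol.

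Among other genes that cut hyaluronan or clear its fragments, 3 of 5 tested were called lower, against 23.5% of all tested genes. The other 2 were not called. The 3 lower genes were the lysosomal exoglycosidases HEXA (156.7 ± 3.31 in pika, 416.4 ± 12.6 in mouse) and GUSB (62.3 ± 3.48 and 162.4 ± 6.65), and HYAL3 (3.90 ± 1.02 and 12.1 ± 2.15). Their log2 fold changes were -1.40, -1.37 and -1.43, and none of the 3 was called without rescaling. HEXA (-0.81) and HYAL3 (-0.99) also lost the call without gene length. CEMIP2, a cell-surface relative of CEMIP, is named TMEM2 in the pika table and was matched through that synonym. It stood at 18.9, 19.0 and 20.3 in pika and at 55.9, 53.6 and 54.0 in mouse, so the groups lay apart in the direction opposite to CEMIP, with no test. SPAM1, the sperm hyaluronidase, was at 0 in every library.

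Of 4 other tested hyaluronan receptors, 1 was called higher and 3 lower, against 28.7% and 23.5% of all tested genes. HMMR, which binds hyaluronan and also the mitotic spindle, had a pika level of 100.6 ± 2.96, a mouse level of 27.4 ± 0.0921 and a log2 fold change of 1.84. It was called under all 16 alternatives. All 7 joined proliferation genes were called higher too, against 28.7% of all tested genes, with a median of 3.31. Among them were AURKB (3.63), TOP2A (3.36), CDK1 (3.33) and CCNB1 (3.31). The part of the proliferation genes in the HMMR difference was not tested. CD44 was at 8.41 ± 0.191 times the HMMR level in pika and 17.5 ± 0.176 times in mouse. Lower in pika were the lectin-like receptor LAYN (-1.86) and the innate immune receptors TLR4 (-1.89) and TLR2 (-1.14), which respond to hyaluronan fragments, but none of these 3 was called without rescaling, and TLR2 (-0.54) was not called without gene length. LYVE1, the receptor of lymphatic vessels, was at 0 in every pika library and at 0.292 ± 0.259 in mouse.

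The 5 joined genes of the other lecticans and link proteins were too low to test, and HAPLN3 was not joined. They summed to 1.67 to 2.42 in pika and 3.90 to 6.23 in mouse. ACAN, the aggrecan of cartilage, was at 1.71 ± 0.368 in pika and at 0.0988 ± 0.171 in mouse, and HAPLN4 was at 0.0725 ± 0.126 and 2.71 ± 1.46. Among the joined lecticans, versican was the only 1 at a testable level.

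Proteins that cross-link the hyaluronan matrix were called lower in pika in 3 of 3 tested genes, against 23.5% of all tested genes. Without rescaling 2 of 3 were called lower, against 10.7%. The pentraxin PTX3, which joins TSG-6 and heavy chains in the expanding matrix, had a pika level of 228.0 ± 7.55 and a mouse level of 734.9 ± 28.2. Its log2 fold change was -1.68, and -0.39 without rescaling, where it was not called. The heavy chain genes ITIH2 (-3.36) and ITIH5 (-2.55) were called lower too, but passed the filter only through mouse, with 23 and 20 pika reads behind their levels of 0.682 ± 0.119 and 0.635 ± 0.355. AMBP, which encodes the light chain bikunin and is made in liver, was at 0 in every library. TNFAIP6, the partner of these proteins, differed in the opposite direction.

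ADAMTS proteases that cut versican were lower in 3 of 4 tested genes, against 23.5% of all tested genes. ADAMTS5 averaged 6.59 ± 0.615 in pika against 509.7 ± 4.50 in mouse, and its log2 fold change was -6.08. ADAMTS1 averaged 52.5 ± 3.06 against 283.1 ± 12.0 (-2.41). ADAMTS9 was at 0.0484 ± 0.0470 in pika, from 3 reads, and at 8.23 ± 0.467 in mouse, and passed the filter only through mouse. All 3 were called lower in the same direction as VCAN under each scaling and without gene length.

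Partners and sheddases of CD44 were lower in 6 of 9 tested genes, with none called higher and 3 not called. Over all tested genes 23.5% were lower and 28.7% higher. Of the 6 lower genes, ANK2 and ESRP2 passed the filter only through mouse. The linker EZR had a pika level of 3.44 ± 0.988, a mouse level of 12.7 ± 2.15 and a log2 fold change of -1.64. The ankyrins ANK3 (-2.26) and ANK2 (-1.56) were also lower. The related linker MSN was far more abundant, at 1046.7 ± 20.3 in pika and 792.6 ± 22.8 in mouse (0.40), and was not called. RDX (-0.27) and the sheddase ADAM17 (0.71) were not called either. The other sheddases of the list, ADAM10 (-1.34) and MMP14 (-1.29), were called lower. ESRP2, a splicing factor that favours the long epithelial CD44 forms, was at 0.561 ± 0.0868 and 7.69 ± 0.920 (-2.47), while ESRP1 was at 0 in every library. Without rescaling no gene of the list was called lower and 3 were called higher, against 10.7% and 58.3% of all tested genes. A gene-level FPKM does not tell CD44 isoforms apart.

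Enzymes of the chondroitin sulfate chains that versican carries went both ways. Of 11 tested, 1 was called higher and 4 lower, against 28.7% and 23.5% of all tested genes, and 6 were not called, with a median of -0.50. Without rescaling 4 were called higher and 1 lower, against 58.3% and 10.7% of all tested genes. The median was then 0.64, against 1.29 for all tested genes. The sulfotransferase CHST3, which acts on the 6-position of the sugar, was at 22.2 ± 1.92 in pika and at 0.179 ± 0.0404 in mouse, where the level came from 3 reads. CHST11, a sulfotransferase for the 4-position, averaged 8.92 ± 1.27 in pika against 67.9 ± 2.19 in mouse, and its log2 fold change was -2.80. CHPF (-1.24) and CHSY3 (-1.22), which build the chain, were called lower, but not without rescaling, where they were at 0.04 and -0.06, nor without gene length, where they were at -0.93 and -0.48. CHST3 and CHST11 kept their calls under all 16 alternatives.

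**Figure D5:**
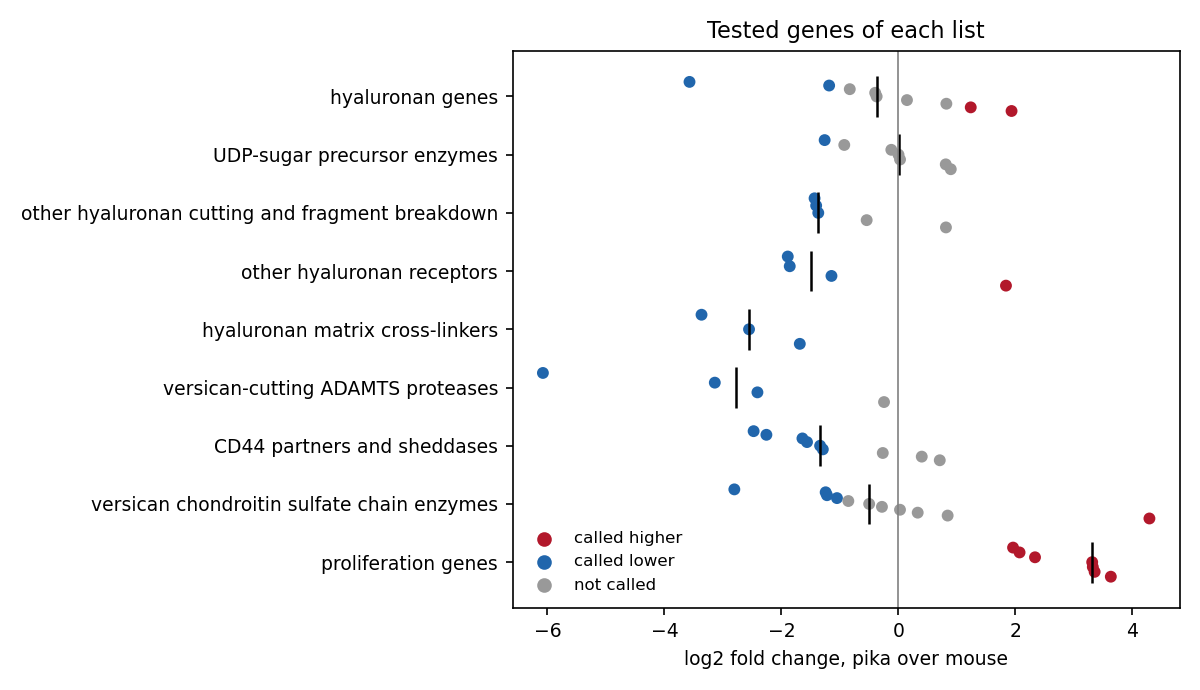
log2 fold change, pika over mouse, of each tested gene in the 9 hyaluronan genes, 7 pathway lists and the proliferation genes on the joined-gene scale; points are called higher (red), called lower (blue) or not called (grey), and black bars are list medians. The cross-linkers and the ADAMTS proteases lie furthest to the left and the proliferation genes furthest to the right, with the UDP-sugar enzymes around 0.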

How the data were processed

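RNA-seq of fibroblasts gave 1 deposited table per library with 1 FPKM value per gene, as the authors deposited it. The submitters' processing notes list CASAVA 1.9, STAR 2.6.1a, featureCounts, edgeR 3.28.1 and the build GRCm38, without roles, and do not say which genome the pika reads were mapped to. No source used here names the annotations.

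Pika rows carry symbols. Of 49585 mouse rows, 49326 were given a symbol from a gene table, and symbols found once in each table gave 14418 joined genes. Rat and rabbit libraries were not used here. The joined genes held 87.1% of the pika FPKM and 37.0% to 38.3% of the mouse FPKM. Values were rescaled per library to a joined-gene sum of 1000000. Genes whose deposited FPKM averaged at least 1 in either species entered a two-sided limma-trend fit (R 4.3.3 with limma 3.58.1) of log2(value + 1), with Benjamini-Hochberg adjustment. limma was tested on simulated data. Adjusted p-values without a tool named are from this fit.

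FPKM values of a gene are whole multiples of a step. These steps gave the reads, the model lengths and the total of each library (tolerance 0.0005 reads). The reads found made up 92.5% to 95.1% of the totals, and both reads and length of a gene may be understated by 1 common factor. Intervals on reads were not computed.

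The 9 genes and all lists were chosen with earlier results of these data known. The text names all 9. From each other list it names up to 4 called genes with the largest fold change and, where fewer than 2 were called, up to 2 more by level, and also genes listed at 0. For each of the 3 members with the highest mean log2 level over the 6 libraries it names the 3 nearest genes. COL1A1, CEMIP2, GNPNAT1, PGM3, MSN, RDX, ADAM10, ADAM17 and MMP14 were named after their values were seen. So were the markers at 0, those that lead their sum and those said to reach the level needed for testing. The alternatives were median-of-ratios scaling, no rescaling, pseudocounts of 0.1 and 0.5, no filter and a filter at 5 FPKM, limma without trend, reads without gene length, voom on reads, a replicate block and leaving out each library. Tables were made in Python 3.11.15 (pandas 2.3.3, scipy 1.17.1, numpy 2.4.6).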

Additional observations from a re-analysis of the deposited data

How the results depend on the processing

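Over the 16 alternatives, the calls of HAS2, TNFAIP6 and VCAN held in each. Over all genes 5403 were called, and without rescaling the 6029 higher and 1106 lower calls made 84.5% of calls higher, against 55.0% on the joined-gene scale, 48.9% with median-of-ratios scaling, 48.3% without gene length and 62.0% with the filter at 5 FPKM, where 1584 were lower. The members called lower fell from 2 to 1 (VCAN) without rescaling, with pseudocounts of 0.1 and 0.5, with no filter, with the filter at 5 FPKM and with limma without trend, and were 1 to 2 when a library was left out. HAS1 lost its call without rescaling (-0.24), with pseudocounts of 0.1 (-1.48) and 0.5 (-1.33), with no filter (-1.18), with limma without trend (-1.18) and without gene length (-0.59). Leaving out any 1 pika library also ended it, and leaving out a library gave HAS1 values from -1.88 to -1.15, and the filter at 5 FPKM gave no value for HAS1 or HAPLN1. HAPLN1 also had none without pika replicate 2. Without rescaling the direction reversed for HAS3 (0.72), HYAL1 (0.37), HYAL2 (0.81), UGP2 (0.36), UGDH (1.15) and CHPF (0.0387), and without gene length for HAPLN1 (-0.56). CD44 was called without rescaling (2.11), HYAL1 without gene length (-1.79) and UGP2 with median-of-ratios scaling (-1.10). The cause of these changes was not tested.

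Nothing in the labels pairs libraries of equal number across the species. The deviations from the species means correlated at -0.00907, 0.0483 and 0.00925 for numbers 1, 2 and 3, and not every library correlated best with its own number. With 3 libraries per species, such values cannot show whether libraries were paired. With the replicate block 2972 genes were called higher and 2433 lower, the same 4 members were called, and the HAS2 share differed by 11.5 percentage points. Depth limits HAS1, HAPLN1 and the mouse level of TNFAIP6, which rest on 31, 22 and 45 mouse reads.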
